A study of Mus musculus with 6 samples.

Results

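The genes described here are 7 genes of the extracellular matrix in the mouse right ventricle (RV): the cross-linking enzymes Lox, Loxl2 and Plod2, the elastic fibre genes Eln and Ltbp2, and the matricellular genes Ctgf and Dpt. They are 7 of the 617 genes listed in the deposited table. The table lists genes for a difference between the same 6 libraries, and the 7 were chosen by their measured values in that contrast. Their differences between groups are therefore a description, and no test is given for them. All 7 were found and all passed the filter on low values. In the table, the smallest difference between the group means of a listed gene was 1.00 on the log2 scale. Plod2 (2.03-fold) and Loxl2 (2.04-fold) lay just inside that limit, and genes outside it are not analysed here.

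Bulk RNA-seq was performed on RV tissue of C57/BL6J WT mice, with 3 libraries in the sham group and 3 in the PAB group. PAB is pulmonary artery banding, a fixed narrowing of the vessel that the RV pumps into, which loads the ventricle with pressure. Pups were operated on at postnatal day 1, and the sham group had the operation without the band. RV tissue of both groups was collected on postnatal day 7, and total RNA was used. Both sexes were used, and the sex of each library is not given. Nothing states that each library is a separate animal, so the spread between libraries may be technical in part. The comparison asks which matrix genes differ in the neonatal RV under pressure overload.

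Collagen and elastin leave the cell as soluble precursors and become load-bearing only after they are assembled and cross-linked outside it. Lysyl hydroxylases prepare collagen inside the cell, lysyl oxidases then oxidise lysines of collagen and elastin so that neighbouring chains bind covalently, and microfibril proteins guide elastin into fibres. Matricellular proteins bind this scaffold and the cells in it without being a main structural part. In the heart, most of this matrix is made by fibroblasts, vascular smooth muscle cells and valve cells, and cross-linked collagen is known for stiffening the ventricular wall.

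Values are taken as normalised reads: the reads counted for a gene, scaled by a size factor that is the same for all genes of a library. The factors rest on taking 1 step between values as 1 read, which was not established. These factors ranged from 0.939 in PAB replicate 1 to 1.07 in sham replicate 2, so libraries were scaled by at most 1.14-fold relative to each other. With 1 step again taken as 1 read, reads in the 617 listed genes numbered 329192, 318544 and 301448 in sham replicates 1, 2 and 3. They numbered 659521, 470978 and 400830 in PAB replicates 1, 2 and 3. These sums cover only the listed genes and are not the depth of the libraries. PAB replicate 1 stood apart from the other PAB libraries: it held the highest PAB value in 252 of the 290 listed genes that were higher in PAB (86.9%). Log2 fold changes of single genes are therefore also given without PAB replicate 1. Median-ratio scaling, which sets the typical listed gene level between libraries, shifted the median log2 fold change by 0.59, and its value is given for those of the 7 genes that it moved most in proportion. Since whole tissue was sequenced, fewer cells of a type and less RNA per cell cannot be told apart.

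In the PAB group 6 of the 7 genes were higher than in sham, and Dpt was lower. The largest ratio of group means among them was that of Ltbp2 (6.04-fold), followed by Ctgf (3.60-fold), Lox (2.80-fold), Eln (2.19-fold), Loxl2 and Plod2. For Dpt the sham mean was 2.25 times the PAB mean. The groups did not overlap for any of the 7. All 3 PAB values lay above all 3 sham values for 6 genes, where 44.6% of the 617 listed genes did the same, and all 3 lay below for Dpt, where 52.5% did. Since the listed genes were selected on this contrast, nothing is read from these counts. The limma model called 100% of the listed genes at an unadjusted threshold of 0.05, which likewise follows from the selection.

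**Figure D1:**
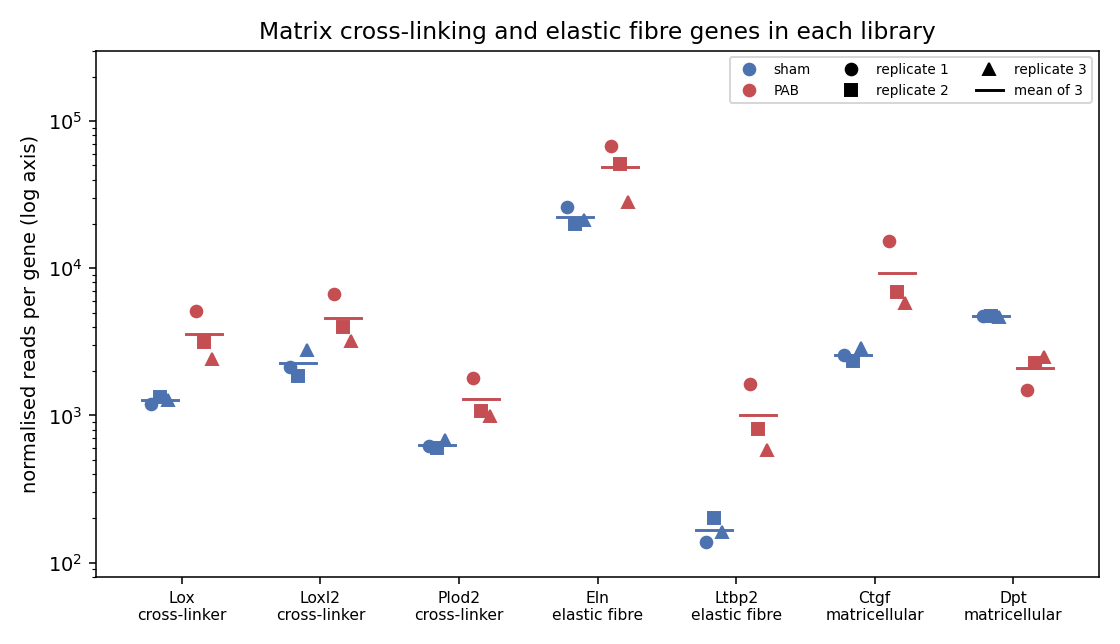
Normalised reads (log axis) of the 7 genes in each of the 6 libraries, grouped by role, with sham in blue, PAB in red, a symbol for each replicate number and a line at the mean of 3 libraries. For the 6 genes other than Dpt every PAB point lies above every sham point, and for Dpt every PAB point lies below.

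Lox encodes lysyl oxidase, the copper enzyme that starts the cross-linking of collagen and elastin. Its normalised reads were 1201, 1341 and 1275 in sham replicates 1, 2 and 3, and 5127, 3145 and 2417 in PAB replicates 1, 2 and 3. The sham libraries lay close together, and the lowest PAB library was still 1.80 times the highest sham library. The group means were 1272 ± 70.0 in sham and 3563 ± 1403 in PAB (SD, n = 3 each). The log2 fold change was 1.41 (SE 0.29), and 1.12 without PAB replicate 1.

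Loxl2, a lysyl oxidase relative that acts on collagens, among them basement membrane collagen, had 2120.4, 1860.1 and 2802 normalised reads in sham and 6649, 4005 and 3214 in PAB, in the order of the replicate numbers. Sham replicate 3 was the highest sham library, and PAB replicate 3 exceeded it by a factor of 1.15 only. The groups were thus separate by less than the spread within them. Mean values were 2261 ± 487 in sham and 4622 ± 1799 in PAB (SD, n = 3 each), with a log2 fold change of 0.98 (SE 0.31) and of 0.69 without PAB replicate 1. With median-ratio scaling it was 1.58. In GENCODE, transcripts of 143 other genes shared at least 100 bases with Loxl2 at 95% identity or more. The longest such stretch, 2348 bases or 43.4% of the deposited Loxl2 length, was shared with Gm21451. How reads that fit both were counted is not given in the sources used here, so the level of Loxl2 is uncertain.

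Plod2 encodes the lysyl hydroxylase that modifies the ends of collagen chains, the sites from which the most stable cross-links form. It had 621, 598 and 685 normalised reads in the sham replicates, and 1796, 1079 and 990.4 in the PAB replicates. PAB replicates 2 and 3 lay near each other, and PAB replicate 1 lay well above both. The means were 635 ± 45.1 in sham and 1288 ± 442 in PAB (SD, n = 3 each). The log2 fold change of 0.97 (SE 0.27) became 0.71 without PAB replicate 1, and 1.56 with median-ratio scaling.

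Lox differed more between the groups than Loxl2 and Plod2 did, also when the genes were compared inside each library, where the size factor cancels. Per kilobase, the ratio of Lox to Loxl2 was 0.637, 0.810 and 0.511 in the sham libraries and 0.867, 0.882 and 0.845 in the PAB libraries. The ratio varied among sham libraries and was nearly constant among PAB libraries, and the groups did not overlap. The size of this difference rested on the sham libraries: the log2 fold change of Lox minus that of Loxl2 was 0.43 with all libraries, 0.27 without sham replicate 3 and 0.60 without sham replicate 2. Lox relative to Plod2 was 2.17, 2.52 and 2.09 in sham and 3.20, 3.27 and 2.74 in PAB, again without overlap. Loxl2 relative to Plod2 ranged over 3.53 ± 0.50 in sham and 3.54 ± 0.27 in PAB (mean ± SD, n = 3 each), and these groups overlapped.

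The list of cross-linking and collagen-modifying enzymes held 27 symbols, of which 6 were listed. All 6 were higher in PAB without overlap between the groups, as were 275 of the 290 listed genes higher in PAB, so nothing is read from this count. Their median log2 fold change was 1.26, where that of the 290 was 1.45. The other members of the list were P3h2, a prolyl 3-hydroxylase of collagen, at 2.59 (2.14 without PAB replicate 1), Tgm2, a transglutaminase that links matrix proteins through glutamine, at 1.34 (0.92 without), and P4ha3, a catalytic subunit of collagen prolyl 4-hydroxylase, at 1.17 (0.88 without). P3h2 had 44.8 ± 9.85 normalised reads in sham and 306 ± 182 in PAB. Genes of the list that the table does not hold, such as Loxl1 and Plod1, are not analysed here.

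Eln encodes tropoelastin, the soluble subunit of elastin. Its normalised reads were 25858, 19965 and 21156 in sham replicates 1, 2 and 3, and 67526, 51012 and 28326 in PAB replicates 1, 2 and 3. PAB replicate 3 was close to the sham group, at 1.10 times the highest sham library, and PAB replicate 1 was 2.38 times PAB replicate 3. The means were 22326 ± 3116 in sham and 48955 ± 19681 in PAB (SD, n = 3 each). The log2 fold change was 1.05 (SE 0.36), and 0.78 without PAB replicate 1. Median-ratio scaling gave 1.65. With at least 20172 implied reads (1 step taken as 1 read) in every library, counting alone would give a coefficient of variation of 0.70% or less.

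Ltbp2 encodes a large secreted protein of the fibrillin family that associates with microfibrils. It had 139, 201 and 162 normalised reads in the sham replicates and 1639, 808 and 583 in the PAB replicates. The lowest PAB library was 2.90 times the highest sham library, the widest gap among the 7 genes. Mean values were 167 ± 31.4 in sham and 1010.1 ± 556 in PAB (SD, n = 3 each), and the log2 fold change was 2.47 (SE 0.36), or 2.05 without PAB replicate 1. It ranked 43 among the 290 listed genes higher in PAB. It was also the gene with the fewest implied reads, from 147 to 215 in sham, where counting alone would give a coefficient of variation of up to 8.25%.

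Ltbp2 and Eln differed in proportion between the groups. Per kilobase, Ltbp2 was 0.00532, 0.00997 and 0.00755 of Eln in the sham libraries and 0.0240, 0.0157 and 0.0204 in the PAB libraries. The lowest PAB ratio lay above the highest sham ratio, and the mean ratio was 2.63 times higher in PAB. Loxl2 and Plod2 kept no such difference from Eln: their mean ratios to Eln in PAB were 0.944 and 0.958 times those in sham, and the groups overlapped. The ratio of Lox to Eln was 1.28 times higher in PAB on average, and here too the groups overlapped, at 0.0976 ± 0.0178 in sham and 0.125 ± 0.0201 in PAB (SD, n = 3 each).

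Of the 21 symbols in the list of elastic fibre and microfibril genes, 4 were listed, 3 higher and 1 lower in PAB, beside 290 higher and 327 lower among all 617 listed genes. Eln and Ltbp2 among them were chosen by their values, and the other two went opposite ways, so nothing is read from this count. Adamtsl2, a secreted glycoprotein that binds microfibrils, was higher by a log2 fold change of 2.05 (SE 0.42), or 1.56 without PAB replicate 1, with 375 ± 37.8 normalised reads in sham and 1807 ± 1158 in PAB (SD, n = 3 each). Emilin2, a glycoprotein related to the one found at the elastin-microfibril interface, was lower. Its values were 2762, 2508 and 2831 in sham and 840.3, 1025 and 1063 in PAB. The lowest sham library was above every PAB library, and the log2 fold change was -1.47 (SE 0.22), or -1.37 without PAB replicate 1. Fibrillins and fibulins are not in the table and are not analysed here.

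Ctgf (Ccn2 in GENCODE) encodes connective tissue growth factor, a secreted matricellular protein that binds integrins and growth factors and is known as a target of TGF-beta and of YAP. It had 2556, 2332 and 2849 normalised reads in sham and 15196, 6896 and 5777 in PAB, in replicate order. PAB replicate 1 was 2.63 times PAB replicate 3, and the lowest PAB library was 2.03 times the highest sham library. Means were 2579 ± 259 in sham and 9289 ± 5146 in PAB (SD, n = 3 each). The log2 fold change was 1.72 (SE 0.35), and 1.30 without PAB replicate 1. Relative to Eln in the same library, Ctgf per kilobase was 0.280, 0.331 and 0.381 in sham and 0.637, 0.383 and 0.577 in PAB. These ratios did not overlap, although PAB replicate 2 lay almost level with sham replicate 3.

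Dpt encodes dermatopontin, a small matrix protein that binds decorin and helps collagen fibrils to form, and it is expressed in cardiac fibroblasts. Its normalised reads were 4720.3, 4759 and 4649 in sham replicates 1, 2 and 3, and 1487, 2281 and 2511 in PAB replicates 1, 2 and 3. The sham libraries were nearly equal, with a coefficient of variation of 1.18%, and the lowest of them was 1.85 times the highest PAB library. The means were 4709 ± 55.8 in sham and 2093 ± 538 in PAB (SD, n = 3 each). The log2 fold change was -1.20 (SE 0.26), and -0.98 without PAB replicate 1. With median-ratio scaling it was -0.61. Dpt ranked 243 among the 327 listed genes lower in PAB, by size of the fold change.

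The balance of the matricellular transcripts Ctgf and Dpt differed between the groups in every library. Per kilobase, Ctgf was 0.326, 0.295 and 0.369 of Dpt in the sham libraries, so Dpt was the more abundant transcript in each of them. In the PAB libraries the ratio was 6.16, 1.82 and 1.39, so Ctgf was the more abundant in each. Eln relative to Dpt was 1.17, 0.893 and 0.969 in sham and 9.67, 4.76 and 2.40 in PAB, and Lox relative to Dpt was 0.0912, 0.101 and 0.0983 in sham and 1.24, 0.494 and 0.345 in PAB. PAB replicate 1 stood far above the other PAB libraries in each of these ratios. None of these ratios overlapped between the groups.

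The list of matricellular proteins and small proteoglycans held 37 symbols and 7 listed genes, 5 higher and 2 lower, and their median log2 fold change was 1.72. The list median covers both directions. The table as a whole had 290 genes higher and 327 lower. The median was 1.45 for the 290 alone and -1.03 for all listed genes, so no more is read from these counts. Cilp, a cartilage intermediate layer protein also made in the heart, was higher by 3.04 (2.54 without PAB replicate 1), Thbs4, a thrombospondin, by 2.93 (2.33 without), Wisp2, a CCN protein that lacks the C-terminal domain of Ctgf, by 2.75 (2.35 without), and Bgn, the proteoglycan biglycan, by 1.09 (0.89 without). Bgn had 7900 ± 297 normalised reads in sham and 17198 ± 4473 in PAB (SD, n = 3 each). Wisp2 was low, with 27.1 ± 12.8 in sham and 198 ± 108 in PAB (SD, n = 3 each). Nov, another CCN protein, was lower, with 1858, 1623 and 1820 in sham and 137, 502 and 707 in PAB. PAB replicate 1 was the lowest library for Nov, as it was for Dpt and Emilin2, and the log2 fold change of Nov was -2.27 (SE 0.49), or -1.56 without that library. Thus 3 CCN genes were listed, with Ctgf and Wisp2 higher and Nov lower in PAB.

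The table held 5 collagen chains, each of them higher in PAB without overlap, as were 275 of the 290 listed genes higher in PAB. Col8a1, a chain of the short-chain collagen of vessel walls, had 145, 151 and 149 normalised reads in sham and 3250, 1372 and 1047 in PAB, a log2 fold change of 3.49 (3.01 without PAB replicate 1). All PAB libraries lay far above the sham libraries, and PAB replicate 1 lay far above the other two. The log2 fold changes of the others, with and without PAB replicate 1, were 2.23 and 1.85 for Col9a2, 2.22 and 1.64 for Col12a1, 1.68 and 1.07 for Col11a1, and 1.22 and 0.99 for Col8a2. Chains of the main fibrillar collagens are not analysed here. Of 16 symbols for matrix proteases and their inhibitors 2 were listed, both inhibitors. Timp3, which is held in the matrix, had a log2 fold change of 1.31 (0.95 without PAB replicate 1), and Timp4 had 1.12 (0.67 without). Timp4 was low in these libraries, with 73.6 ± 25.9 normalised reads in sham and 173 ± 102 in PAB (SD, n = 3 each). The groups overlapped for Timp4.

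The PAB libraries held the same places for the 6 genes that were higher. For all 6 genes higher in PAB, replicate 1 had the highest value, replicate 2 the middle and replicate 3 the lowest, an order found in 68.6% of the 290 listed genes higher in PAB. For Dpt the order was reversed, with replicate 1 the lowest, as in 41.9% of the 327 listed genes lower in PAB. The order was thus common among the listed genes. Relative to the sham mean on the log2 scale, PAB replicates 1, 2 and 3 stood at 3.30, 2.28 and 1.81 for Ltbp2 and at 2.01, 1.31 and 0.93 for Lox. Eln stood at 1.61, 1.20 and 0.35, so that in PAB replicate 3 it was the least raised of the 6 genes, while in PAB replicate 2 it was above Loxl2 (0.85) and Plod2 (0.77).

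**Figure D2:**
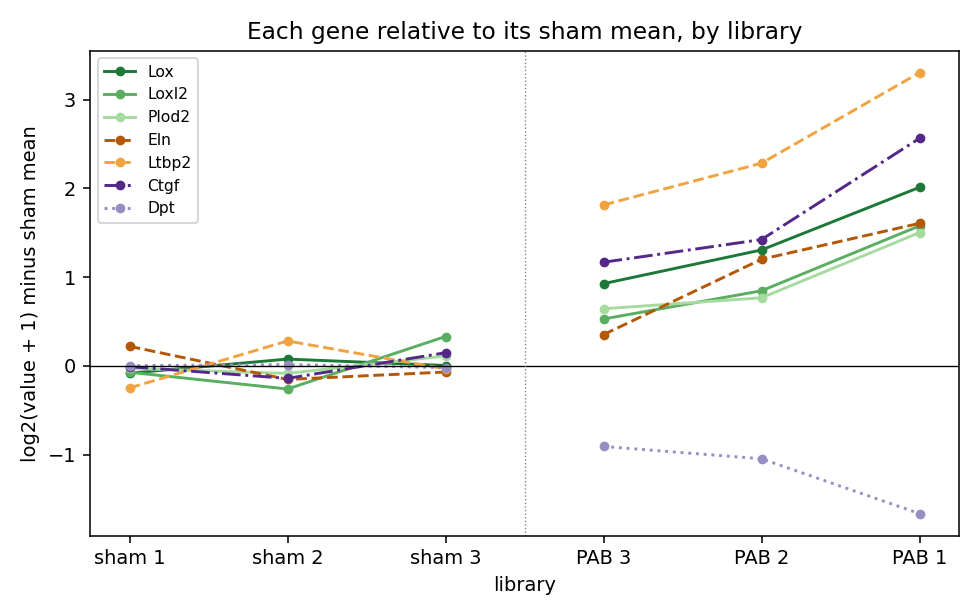
Log2(normalised reads + 1) of each of the 7 genes minus its sham mean, with the 6 libraries on the x axis and 1 line per gene, coloured by role (cross-linkers green, elastic fibre genes orange, matricellular genes purple). PAB replicate 1 is farthest from 0 for all 7 genes, from 3.30 for Ltbp2 to -1.66 for Dpt, and the sham libraries stay between -0.26 and 0.33.

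The spread within the PAB group was wider than within sham for all 7 genes, as it was for 457 of the 617 listed genes (74.1%). The coefficient of variation in PAB was 55.4% for Ctgf, 55.1% for Ltbp2, 40.2% for Eln, 39.4% for Lox, 38.9% for Loxl2, 34.3% for Plod2 and 25.7% for Dpt. In sham it ranged from 1.18% for Dpt to 21.5% for Loxl2. The median over the 7 genes was 10.1% in sham and 39.4% in PAB, beside 17.8% and 34.3% over all listed genes.

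Levels of different genes were compared per kilobase of gene length. In sham, Eln had 2757 ± 385 normalised reads per kilobase and Dpt 2732 ± 32.4, and these highest levels did not differ beyond their spread. They were followed without overlap by Ctgf (902 ± 90.6), Loxl2 (418 ± 90.0), Lox (265 ± 14.6), Plod2 (118 ± 8.37) and Ltbp2 (20.4 ± 3.84; SD, n = 3 for each). In PAB the order was Eln (6045 ± 2430), Ctgf (3247 ± 1799), Dpt (1214 ± 312), Loxl2 (855 ± 333), Lox (741 ± 292), Plod2 (239 ± 81.9) and Ltbp2 (123 ± 68.0), so the only exchange in the order of group means was that of Ctgf and Dpt. In PAB replicate 1 alone, Dpt (862) also lay below Loxl2 (1230.1) and Lox (1066). Over the PAB libraries, the ranges of neighbours overlapped between Eln and Ctgf, Dpt and Loxl2, Loxl2 and Lox, and Plod2 and Ltbp2. They did not overlap between Ctgf and Dpt or Lox and Plod2. Inside each PAB library, however, Eln lay above Ctgf, Loxl2 above Lox, and Plod2 above Ltbp2. Of these neighbours, only Dpt and Loxl2 changed places between PAB libraries. Ltbp2 was the lowest of the 7 in both groups in spite of its fold change. By level per kilobase among 616 listed genes, Ltbp2 went from rank 377 in sham to rank 138 in PAB, Eln from 12 to 8, and Dpt from 13 to 27.

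Markers of the cell types that make or surround this matrix were few in the table. Of 12 fibroblast markers only Dpt itself was listed, and of 12 markers of smooth muscle cells, pericytes and myofibroblasts only Cnn1, a smooth muscle calponin, with 122, 106 and 122 normalised reads in sham and 681, 289 and 372 in PAB. The endothelial list had Vwf of 8 symbols, with 1488, 1334 and 1283 in sham and 4792, 3251 and 1637 in PAB. Vwf, like Eln, was highest in PAB replicate 1 and near the sham level in PAB replicate 3. The macrophage list had C1qa of 10 symbols (666, 700.4 and 643 in sham, 312, 271 and 347 in PAB), and the cardiomyocyte list had Pln of 12 symbols (21385, 21925 and 27039 in sham, 9037, 10319 and 12438 in PAB). Both were lower in PAB without overlap. With 1 gene each, these values are also the summed and the highest levels of their lists, and no listed marker was at 0. None of the 7 epicardial symbols or the 8 cartilage and valve symbols was listed, and the markers that the table does not hold are not analysed here. The part of these cell types in the differences of the 7 genes was not tested.

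The listed genes whose profile over the 6 libraries was closest to each gene were found by the root mean square (RMS) difference of log2 values relative to the sham mean, among 449 genes. Plod2 was closest to Kif1a (0.0495) and Mical2 (0.0811), Loxl2 to Usp9x (0.0568) and Foxc2 (0.0692), and Lox to Ttll7 (0.0897) and Adam9 (0.0981). Eln lay nearest to Piezo1 (0.0764), a mechanically gated ion channel, and to C1qtnf1 (0.103). Ctgf lay nearest to Uck2 (0.116) and Fhl1 (0.138), and Dpt to Gm45716 (0.0629) and Wfdc1 (0.0633). The genes nearest to Ltbp2 lay farther away than those nearest to the other 6, namely Col9a2 (0.277) and Slc16a3 (0.298). This distance is not scaled by fold change or read number, and Ltbp2 had the largest fold change and the fewest implied reads of the 7. No more is therefore read from its distance. No member of the 7 was among the nearest genes of another.

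In GRCm38 the genes lie on 7 chromosomes and are not neighbours. Lox spans 52516067 to 52529867 on the minus strand of chromosome 18, Eln 134702593 to 134747323 on the minus strand of chromosome 5, and Ltbp2 84783212 to 84876532 on the minus strand of chromosome 12. On plus strands lie Loxl2 (chromosome 14, 69609068 to 69695834), Plod2 (chromosome 9, 92542223 to 92608428), Ctgf (chromosome 10, 24595442 to 24598683) and Dpt (chromosome 1, 164796644 to 164824266). Merged exons number 36 in Eln and 35 in Ltbp2, which have the most merged exonic bases of the 7 (8098 and 8184), and 3 in Ctgf and 4 in Dpt.

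Exons of genes on the opposite strand overlap 23.2% of the exonic bases of Ctgf (Gm15270), 9.34% of Ltbp2 (D030025P21Rik), 6.42% of Plod2 (Gm38391), 5.57% of Loxl2 (Gm27177), 3.30% of Eln (Gm30003) and 0.628% of Lox, and none of Dpt. The sources used here do not state that counting used the strand, and without strand, reads of a gene and its antisense partner cannot be told apart. The values of Ctgf are the most exposed to this.

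RefSeq promoter windows (GRCm38.p6) were at hand for 2 of the 7 genes, Ltbp2 and Dpt. Of the 7, Ltbp2 had the largest difference upward and Dpt the only one downward. In the 250 bases before each start, 5 motifs were searched on both strands: the hypoxia-response core ACGTG or CACGT, the SMAD box CAGAC or GTCTG, the TEAD element GGAATG or CATTCC, the CCAAT box CCAAT or ATTGG, and the TATA box TATAAA or TTTATA. Of 32851 windows of this length in the table, they occur in 16.6%, 42.2%, 12.6%, 33.8% and 12.4% respectively. The Ltbp2 window (GC content 61.6%) held 2 SMAD box matches, beginning 205 and 176 bases before the RefSeq start, and no other motif of the 5. The Dpt window (GC content 48.8%) held none of the letters searched. The median GC content of all windows was 52.4%. A match of so few letters is a description of the sequence and not a binding site. The runs below are in the 5′ to 3′ direction of the gene, end where the GENCODE gene begins, and have the SMAD box letters in capitals. Ltbp2 is chr12:84876533-84876741 on the minus strand (209 bases) and Dpt is chr1:164796413-164796643 on the plus strand (231 bases).
Ltbp2: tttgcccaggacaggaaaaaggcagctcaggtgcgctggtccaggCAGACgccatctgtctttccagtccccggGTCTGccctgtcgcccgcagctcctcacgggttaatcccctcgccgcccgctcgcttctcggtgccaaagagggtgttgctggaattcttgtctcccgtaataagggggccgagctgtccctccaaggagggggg
Dpt: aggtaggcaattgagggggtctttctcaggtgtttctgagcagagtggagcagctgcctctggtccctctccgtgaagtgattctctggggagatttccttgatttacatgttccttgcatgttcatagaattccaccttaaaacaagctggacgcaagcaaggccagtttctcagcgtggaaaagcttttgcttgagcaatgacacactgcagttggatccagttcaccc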

How the data were processed

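RNA of 3 sham and 3 PAB libraries of mouse RV was prepared with an NEBNext Ultra kit. The labels give the organism, strain and build as mouse, although the text on RNA extraction names a rat. The authors counted clean reads per gene with featureCounts 1.5.0-p3, and the submitters' processing notes also name HISAT2 2.0.5, StringTie 1.3.3b, GATK 3.7 and the build mm10 (GRCm38), with no role for each. The paper calls the values FPKM, but the deposited values are a signal not scaled by gene length. They are taken as reads per gene over a size factor common to all genes of that library. Within a tolerance of 1e-06, 100% of the 617 values of every library were whole multiples of a step, and implied reads are values over that step, with the step taken as 1 read. The deposited table is a selection of genes, so the total depth is not known. Its columns of the authors' comparison hold log2 fold changes, p-values and adjusted p-values and were not used, and 1 gene had no symbol.

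Groups and replicate numbers came from the sample titles. No libraries were identical. Genes with a mean of at least 0.1 were kept, which removed none, and log2(value + 1) was fitted with limma 3.58.1 (lmFit, eBayes with trend, unpaired) in R 4.3.3. This pseudocount understates the change of low genes. For the 7 genes only the coefficient and its SE are given. The fit was tested on simulated data. The 7 genes and the gene lists were chosen with earlier results of these data known. Named genes were the 7, every listed gene of the lists (apart from a gene that is not reported here), and the 2 listed genes with a mean of at least 50 nearest to each of the 7, and Nppb was added after its values were seen. Python 3.11.15, numpy 2.4.6, pandas 2.3.3 and matplotlib 3.10.9 were used for tables and figures.

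Genes were matched to GENCODE M21 by Ensembl ID. Of the 617, 616 matched, 597 of them with the same coordinates. Shared sequence was searched with blastn 2.17.0 (at least 100 bases at 95% identity). Promoters were matched by symbol. Alternatives were the pseudocount, the library scaling, the filter, the trend, a replicate block, the gene length and leaving out each library.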

Additional observations from a re-analysis of the deposited data

How the results depend on the processing

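The filters on low values, the fit without trend and the replicate block leave every log2 fold change of the 7 genes as it is. Of 56 values recomputed under the other alternatives, all 56 stayed on the same side of 0, which groups without overlap fix when a library is left out, and 49 moved by less than the SD between libraries. The 7 that moved by more were all under median-ratio scaling over the listed genes, which gave 2.01 for Lox, 1.58 for Loxl2, 1.56 for Plod2, 1.65 for Eln, 3.06 for Ltbp2, 2.31 for Ctgf and -0.61 for Dpt. This scaling takes most listed genes as unchanged, although the table lists genes that differ, and it shifted the median log2 fold change by 0.59. A scaling moves all genes alike, so differences between the 7 genes were not affected. Under it limma called 216 genes lower, against 327 with the deposited scaling, and 290 higher with either scaling. The share of calls that were higher in PAB was 57.3%, against 47.0%, only because fewer genes were called lower.

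Leaving out each library in turn gave 1.12 to 1.66 for Lox, 0.69 to 1.21 for Loxl2, 0.71 to 1.13 for Plod2, 0.78 to 1.40 for Eln, 2.05 to 2.79 for Ltbp2, 1.30 to 1.99 for Ctgf and -1.35 to -0.98 for Dpt. Whether a sham and a PAB library with equal replicate numbers had more in common than the number is not given in the sources used here. After the mean of each group was subtracted, sham and PAB correlated at -0.06, -0.05 and -0.20 for replicates 1, 2 and 3. Values from 3 libraries per group, in genes selected on this contrast, cannot decide that question. A replicate block gave 616 calls, 289 higher and 327 lower, against 617 without it. Exonic bases in place of the deposited length changed Lox only, to 266 per kilobase in sham. For the other genes both lengths are identical, so this alternative could not change their levels. The planned count tests with edgeR and DESeq2 were not run, since the selected table holds too few low values to establish whole reads for a count test. With 3 libraries per group the precision of each value is limited, and total depth is not known.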

Other observations

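Genes of the pathways that are known to act on this matrix were listed in small numbers. Of 26 hypoxia-inducible symbols 9 were listed, 8 higher and 1 lower in PAB, beside 290 higher and 327 lower among all listed genes. Their median log2 fold change, with the lower gene included, was 1.42. That of the 290 higher genes alone was 1.45, and that of all listed genes was -1.03. The list includes Lox, Loxl2 and Plod2, which were chosen by their values. The others higher in PAB were Car9, a carbonic anhydrase (log2 fold change 3.42, and 3.11 without PAB replicate 1), Slc16a3, a lactate exporter (2.23, and 1.71 without), Bnip3, a mitophagy receptor (1.59, and 1.35 without), Slc2a1, a glucose transporter (1.20, and 0.79 without), and Stc1, a secreted glycoprotein with 72.8 ± 14.1 normalised reads in sham and 304 ± 107 in PAB (SD, n = 3 each, log2 fold change 1.77 without PAB replicate 1). Apln, the ligand of the apelin receptor, was lower (-1.05, and -0.98 without), with 2931, 2024 and 2704 normalised reads in sham and 1101, 1370 and 1193 in PAB. Car9 was low in sham, with 13.2, 2.81 and 7.34 normalised reads.

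Of 14 YAP/TEAD targets Ctgf and Ankrd1, an ankyrin repeat protein of cardiomyocytes, were listed, both higher, where 290 listed genes were higher and 327 lower. Ctgf was chosen by its values, so nothing is read from this count. Ankrd1 had 8216, 7898 and 10944 normalised reads in sham and 39541, 26235 and 22444 in PAB, a log2 fold change of 1.68, or 1.44 without PAB replicate 1. Of 7 atrial markers only Nppa, which is also a marker of ventricular load, was listed. Its normalised reads were 238, 193 and 192 in sham and 21964, 9218 and 4995 in PAB, the same order of PAB libraries as in the 6 matrix genes that were higher. Nppb, named after its values were seen, had 17262, 11468 and 11519 in PAB, so that PAB replicate 1 was the highest and PAB replicates 2 and 3 were level.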
